A study of Mus musculus with 15 samples.

Results

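BO-112 and DMXAA, each given alone, were compared with each other in MC38 tumours. The comparison takes the 4 tumours injected with BO-112 and the 4 injected with DMXAA, 8 of the 15 libraries of the series, and all 17712 genes of the deposited expression table. MC38 is a mouse colon carcinoma line, grown here under the skin of C57BL/6 mice and injected when the tumours measured about 5 mm. BO-112 was given at 50 µg and DMXAA at 100 µg, each in 100 µL into the tumour, so the 2 agents are compared at 1 dose each and at different masses. All tumours were taken 24 h after the injection. The 3 vehicle tumours, which received PBS with 5% DMSO and 5% glucose, give the level without either agent beside many of the results. The 4 tumours given both agents enter only the shared estimate of the spread. The labels call the samples biological replicates and give no batch, age, sex or further allele for the mice.

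BO-112 is poly I:C, a synthetic mimic of double-stranded RNA, held in a complex with a carrier. Double-stranded RNA is read in endosomes by TLR3, and in the cytosol by MDA5 and RIG-I, which act through MAVS, and by the kinase PKR. DMXAA binds the mouse form of STING, the adaptor that receives the cyclic dinucleotide made by the DNA sensor cGAS, and it was first studied as an agent that disrupts tumour blood vessels. Both routes converge on the kinase TBK1 and the factors IRF3 and NF-κB, which switch on interferon beta and inflammatory cytokines. Secreted interferon then acts through its receptor IFNAR and a complex that holds STAT2 and IRF9 on the interferon-stimulated genes.

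Levels are given as CPM, the reads of a gene scaled to the size of its library, in the order of the replicate numbers 1 to 4 (vehicle 1 to 3). A difference is the fitted log2 difference BO-112 minus DMXAA with its standard error, so a positive value means a higher level with BO-112. A gene is called when its limma p-value, adjusted over all 17712 genes by the Benjamini-Hochberg method, is below 0.05. The recovered reads lay between 15677864 and 19070268 in BO-112 libraries and between 14710769 and 19660511 in DMXAA libraries. Some features of the libraries touch the results. In DMXAA 2 and DMXAA 3, transcripts in the shortest 10% stood above the mean library by a median log2 deviation of 1.13 and 0.49, against -0.22 to -0.12 in the other 6 single-agent libraries. Skeletal muscle RNA was high in BO-112 1, DMXAA 1, DMXAA 3 and vehicle 2, where the muscle actin Acta1 stood at 163, 291, 194 and 57.9 CPM, with at most 5.57 CPM in the other vehicle and single-agent libraries. Of 14 genes listed for carcinoma and epithelium, 8 were measured. Summed, these 8 came to 182 to 220 CPM with BO-112 and 196 to 250 CPM with DMXAA, and none of the 8 was called. Epcam lay at or below 1.06 CPM in all 8 tumours, while Cdh1 lay between 4.91 and 39.1 CPM. Whether these genes mark the MC38 cells was not tested, so the sums do not give the share of carcinoma cells.

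Of the 17712 genes, 3783 (21.4%) differed between the agents, 1976 (11.2%) higher with BO-112 and 1807 (10.2%) higher with DMXAA. Among the called genes, 714 were at least 2-fold higher and 584 at least 2-fold lower with BO-112. The highest and lowest values of the groups did not overlap, with BO-112 above, for 2144 genes (12.1%), and with DMXAA above for 1877 genes (10.6%). These totals rested on single libraries: 1879 genes were called without DMXAA 3, 2130, 2289 and 2292 without BO-112 1, 2 or 4, 5743 without DMXAA 4 and 5898 without DMXAA 1. When the 4 libraries high in muscle RNA were dropped 791 were called, and 1936 when DMXAA 2 and DMXAA 3 were omitted. With scaling by total count alone, 35.4% of the called genes were higher with BO-112, against 52.2% with the authors' scaling. A set of 1590 genes stayed called with each of the 8 libraries left out in turn, 989 of them higher and 601 lower with BO-112.

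**Figure D1:**
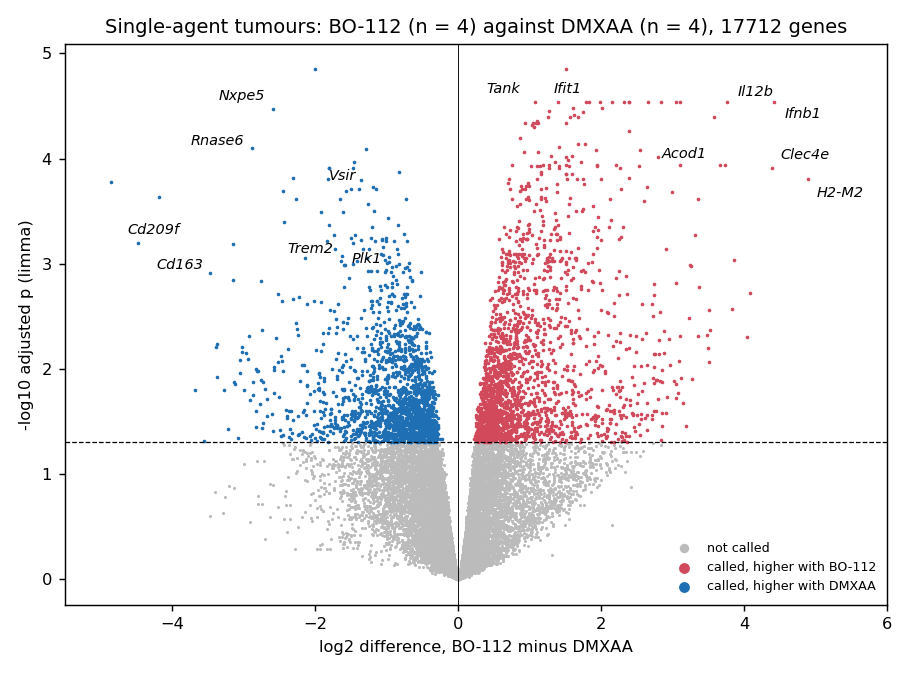
Every one of the 17712 genes by its log2 difference BO-112 minus DMXAA (horizontal) and the -log10 of its limma adjusted p (vertical), with the threshold of 0.05 as a dashed line. Interferon and cytokine genes such as Ifnb1 and Il12b lie far to the right, and the macrophage receptor Cd163 and the lectin Cd209f lie far to the left.

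**Figure D2:**
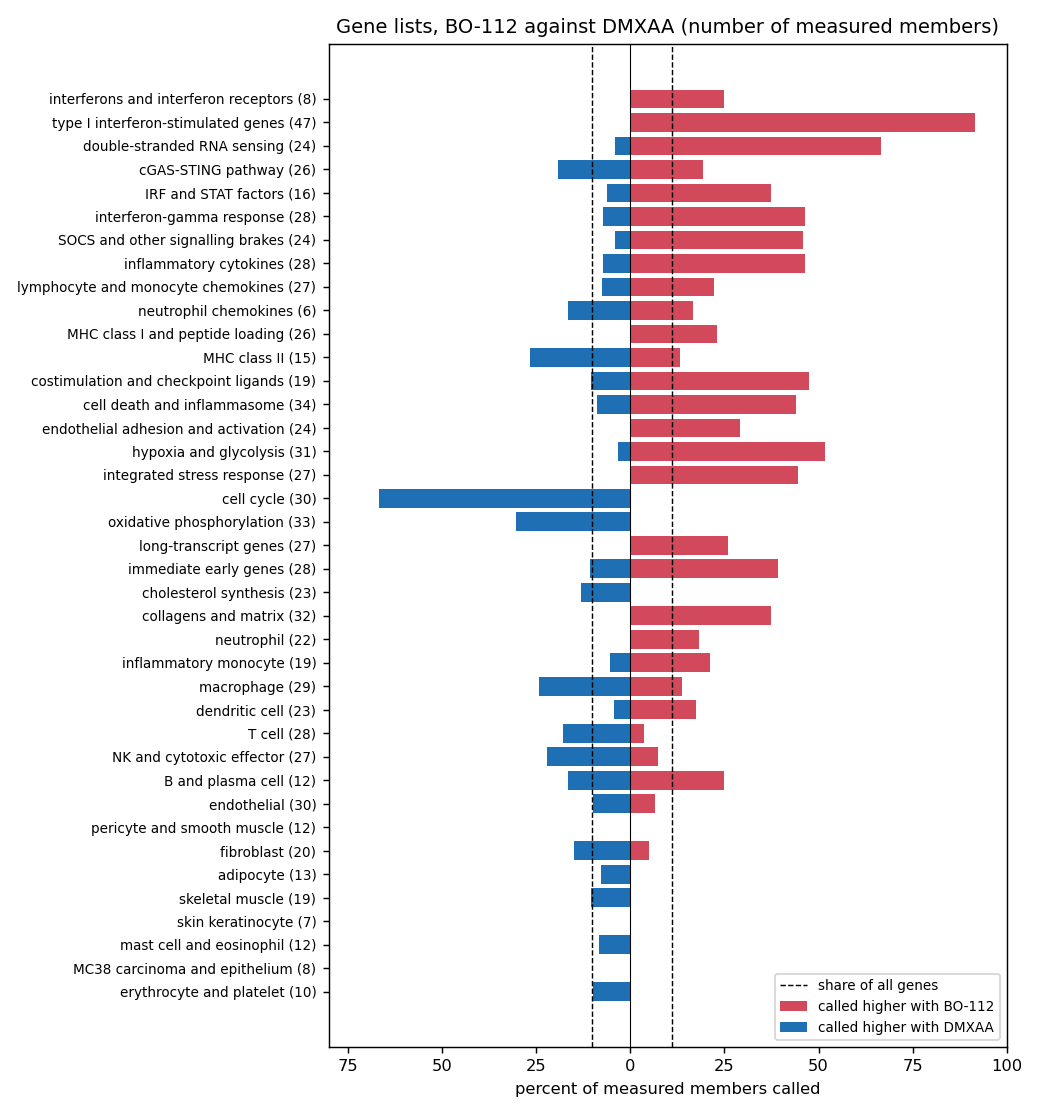
For each of 39 gene lists, the percent of measured members called higher with BO-112 (red, to the right) or higher with DMXAA (blue, to the left), with the shares over all genes (11.2% and 10.2%) as dashed lines. The type I interferon-stimulated genes reach furthest to the right, with 43 of 47 members, and the cell cycle list furthest to the left, with 20 of 30.

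Interferon beta and the genes it drives were higher with BO-112 than with DMXAA. Ifnb1 (ENSMUSG00000048806.5), the interferon beta gene, stood at 6.36, 11, 5.25 and 6.19 CPM in the BO-112 tumours and at 0.286, 0.604, 0.277 and 0.153 CPM in the DMXAA tumours, with 0.142, 0.0605 and 0.119 CPM in vehicle. The lowest BO-112 tumour was above the highest DMXAA tumour. The means of 7.20 ± 2.58 and 0.330 ± 0.192 CPM (SD, n = 4 each) gave a fitted 21.4-fold difference (log2 4.42 ± 0.39, limma adjusted p = 2.87e-05). The receptor chain Ifnar1 was higher by 0.39 ± 0.13 (adjusted p = 0.0411). That call was lost without BO-112 1, 2, 3 or 4 or without DMXAA 2 or DMXAA 3, where the difference was 0.30 or more and the adjusted p at most 0.117. Interferon gamma (Ifng) stood at 0.421 to 1.26 CPM with BO-112 and 1.38 to 6.49 CPM with DMXAA, and its difference of -1.80 ± 0.84 did not pass (adjusted p = 0.123, 95% interval -3.58 to -0.02).

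The stretches before the start of 4 genes are shown because their RNA separated the agents and because they hold letters of the kind that interferon and NF-κB signalling are known to use. They were chosen out of 8 examined, and the other 4, of Il12b, Lcn2, S100a8 and Ptx3, held no match to either motif, although Il12b also separated the agents. Each is the 250 bases upstream of the start in RefSeq on GRCm38.p6, another build than the authors' mm39, read 5′ to 3′ on the gene's strand. Capitals mark matches, on either strand, to the interferon response element (GAAA, any 2 bases, GAAA) or to the κB-like sequence (GGGAA, any 3 bases, CC). The positions are chr4:88522795-88523044 (minus strand) for Ifnb1, chr4:156200819-156201068 (minus) for Isg15, chr19:34640639-34640888 (plus) for Ifit1 and chr5:92348890-92349139 (minus) for Cxcl10.
Ifnb1: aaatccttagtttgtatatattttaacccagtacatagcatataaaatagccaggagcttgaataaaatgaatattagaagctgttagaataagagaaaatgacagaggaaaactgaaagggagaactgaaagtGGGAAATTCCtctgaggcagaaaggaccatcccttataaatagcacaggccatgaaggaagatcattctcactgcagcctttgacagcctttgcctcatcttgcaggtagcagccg
Isg15: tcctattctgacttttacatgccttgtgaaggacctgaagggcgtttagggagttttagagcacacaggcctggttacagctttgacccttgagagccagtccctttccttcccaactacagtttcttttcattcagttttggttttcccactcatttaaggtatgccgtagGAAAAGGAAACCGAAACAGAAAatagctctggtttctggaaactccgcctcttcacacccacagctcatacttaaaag
Ifit1: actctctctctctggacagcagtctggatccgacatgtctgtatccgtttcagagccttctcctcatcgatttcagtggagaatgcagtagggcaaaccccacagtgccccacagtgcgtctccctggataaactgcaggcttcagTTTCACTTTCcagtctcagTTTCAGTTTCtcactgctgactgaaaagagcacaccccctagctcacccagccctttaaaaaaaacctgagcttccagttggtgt
Cxcl10: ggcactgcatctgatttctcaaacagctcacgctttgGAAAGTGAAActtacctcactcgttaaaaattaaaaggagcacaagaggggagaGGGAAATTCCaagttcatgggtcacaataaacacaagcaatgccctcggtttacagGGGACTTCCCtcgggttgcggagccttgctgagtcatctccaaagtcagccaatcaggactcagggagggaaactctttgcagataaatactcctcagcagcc
The Isg15 stretch held 3 matches to the interferon element, beginning 78, 72 and 66 bases before the start and overlapping each other, and that of Ifit1 held 2, at 104 and 85 bases. That of Cxcl10 held 1 such match at 213 bases and 2 κB-like matches at 159 and 103 bases. The Ifnb1 stretch held 1 κB-like match, at 116 bases. Of all 32851 upstream stretches in the same RefSeq set, 2.977% held the interferon element and 4.944% the κB-like sequence. A match is a description of the letters and no binding was measured.

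Type I interferon-stimulated genes had the largest share of members called among the 39 lists. Of 47 measured members, 43 were called higher with BO-112, against 11.2% of all genes, and none lower, with a median difference of 1.52 against -0.047 over all genes. Among the members that did not pass, Ifi27l2a, Bst2 and Ifi35 lay at -0.02, 0.34 and 0.60. Without DMXAA 2, Bst2 and Ifi35 were called, at 0.69 (adjusted p = 0.0429) and 0.85 (adjusted p = 0.00199), and with DMXAA 2 and 3 omitted they lay at 0.90 and 1.03. Both also passed under array quality weights and after the trend on transcript length was removed. Beside vehicle, the median member was 2.19 higher with BO-112 and 0.81 higher with DMXAA on the log2 scale, both set against the same vehicle tumours. Across the alternatives that were run, 39 to 45 members were called higher and none lower.

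Isg15 (ENSMUSG00000035692.8), a ubiquitin-like antiviral protein, stood at 507, 657, 555 and 535 CPM with BO-112 and at 155, 261, 188 and 173 CPM with DMXAA, above 64.2 to 97.0 CPM in vehicle. Its difference was 1.56 ± 0.18 (2.94-fold, adjusted p = 0.000117). Ifit1, which binds foreign RNA ends, stood at 644, 794, 661 and 623 CPM against 158, 164, 150 and 220 CPM, a difference of 1.99 ± 0.17 (adjusted p = 2.87e-05). For both genes the agents' ranges were apart and both agents lay above every vehicle tumour. Rsad2, the antiviral enzyme viperin, was measured at 1186, 1452, 1249 and 1160 CPM against 202, 95.9, 110 and 248 CPM, an 8.29-fold difference. Ifit2, a relative of Ifit1, was higher by 2.38 ± 0.22. Usp18, which shuts off the interferon receptor, was higher by 1.78 ± 0.17, from 69.6 ± 3.47 to 241 ± 37.2 CPM. For Mx1, a gene of the Mx GTPase family, the DMXAA tumours differed among themselves, with 82.9 and 58.2 CPM in DMXAA 1 and 4 and 21.1 and 34.2 CPM in DMXAA 2 and 3, and all lay under the BO-112 range of 209 to 338 CPM. Vehicle tumours held 22.4 to 44.7 CPM of Mx1.

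Genes that answer interferon gamma as well as type I interferon were higher with BO-112 in 13 of 28 and lower in 2, beside 11.2% and 10.2% of all genes, with a median difference of 1.06. The guanylate-binding protein Gbp5 stood at 371, 449, 359 and 331 CPM against 110, 63.8, 67.0 and 112 CPM (2.14 ± 0.30, adjusted p = 0.00038). Vehicle 1 and 2, at 123 and 144 CPM, were above all 4 DMXAA tumours for Gbp5. Its relative Gbp2b went the other way, at 0.319 to 1.38 CPM with BO-112 and 2.45 to 6.94 CPM with DMXAA (-2.49 ± 0.79, adjusted p = 0.0378). Leaving out BO-112 1, 3 or 4 or DMXAA 2 or 3 ended that call, with an adjusted p of up to 0.0996. Omitting DMXAA 2 and 3 together, or the libraries high in muscle RNA, left 8 of the 28 higher and none lower. How reads that fit several near-identical genes were counted is not given in the sources used here, which leaves the Gbp, Ifit, Oas and H2 genes less certain one by one.

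**Figure D3:**
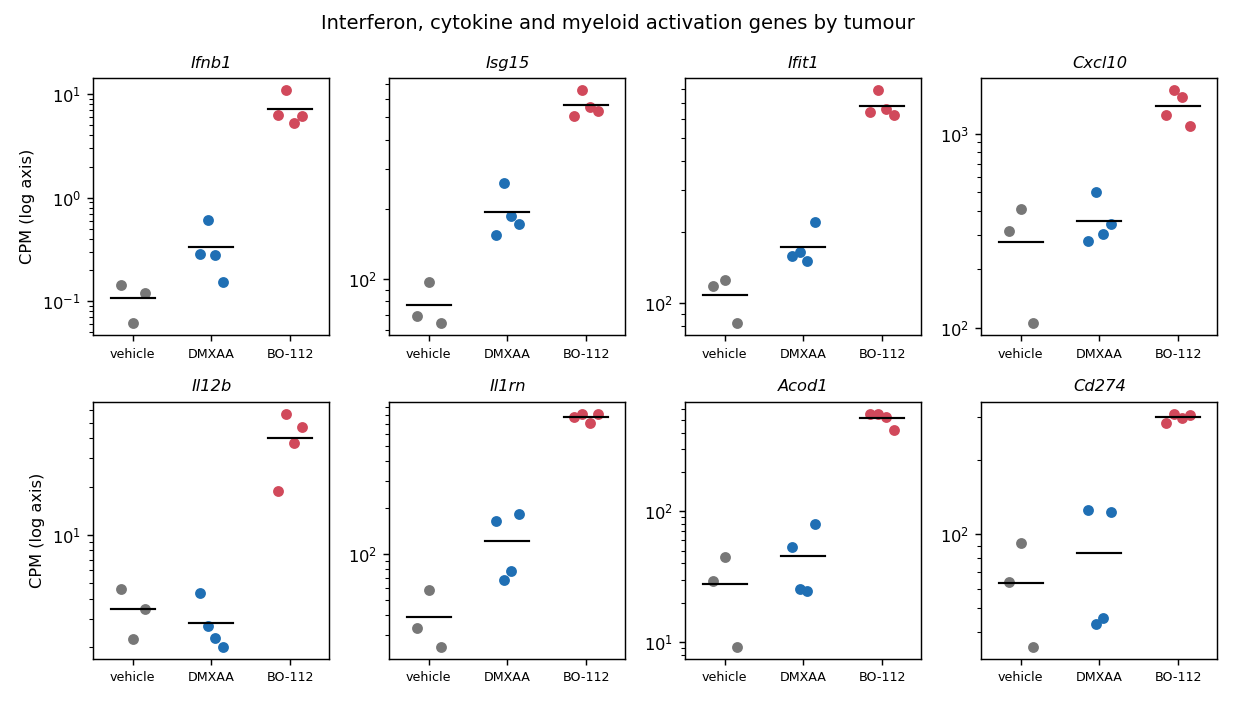
CPM on a log axis for 8 genes in each vehicle (n = 3), DMXAA (n = 4) and BO-112 (n = 4) tumour, with points for tumours and a line for the mean. Each gene has all 4 BO-112 tumours above all 4 DMXAA tumours, as for Ifnb1 at 5.25 to 11 against 0.153 to 0.604 CPM.

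The receptors of double-stranded RNA, which are themselves interferon-inducible, were higher with BO-112, while Tmem173, which encodes STING, did not differ detectably. In the double-stranded RNA sensing list, 16 of 24 members were called higher and 1 lower, beside 11.2% and 10.2% of all genes, with a median of 0.65. Tlr3 stood at 80.1, 97.5, 87.7 and 79.1 CPM with BO-112 and 38.8, 37.7, 32.3 and 46.6 CPM with DMXAA, where vehicle held 23 to 37.0 CPM. Its difference was 1.16 ± 0.15 (adjusted p = 0.000232). Ifih1, which encodes MDA5, was higher by 1.51 ± 0.16 and Ddx58, which encodes RIG-I, by 1.27 ± 0.15. Trim25, the ubiquitin ligase that acts with RIG-I, stood at 453 to 512 CPM against 178 to 231 CPM. The adaptor Tank, which links receptors to TBK1, had narrow groups of 122 ± 4.05 and 57.9 ± 5.83 CPM (1.08 ± 0.10, adjusted p = 2.87e-05). Eif2ak2, which encodes PKR, stood at 162 to 212 CPM with BO-112 and at 103, 54.2, 61.7 and 104 CPM with DMXAA. Its vehicle range of 61.0 to 94.6 CPM overlapped that of DMXAA.

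In the cGAS-STING list, 5 of 26 members were called higher and 5 lower, beside 11.2% and 10.2% of all genes, with a median of -0.21. Tmem173 stood at 49.9, 69.5, 48.9 and 48.1 CPM with BO-112 and at 71.5, 65.7, 65.7 and 58.5 CPM with DMXAA, with 57.6 to 80.9 CPM in vehicle. The ranges overlapped through BO-112 2, and the difference of -0.29 ± 0.14 had a 95% interval from -0.58 to 0.01 (adjusted p = 0.139). The DNA sensor Cgas lay at 0.38 ± 0.21 (adjusted p = 0.174). Trim56, a ubiquitin ligase of the pathway, was higher with BO-112 by 1.06 ± 0.19, and the DNA-binding protein Ifi204 by 1.35 ± 0.19. The DMXAA tumours held 100, 54.3, 65.6 and 103 CPM of Trim56, with 85.5 to 124 CPM in vehicle. The Trim56 difference was 0.68 with DMXAA 2 and 3 omitted and 0.72 with the transcript length trend removed, and it stayed called in both. Nlrx1, a mitochondrial protein reported to restrain such signalling, was lower with BO-112, at 3.45 to 4.52 CPM against 6.51 to 8.05 CPM (-0.82 ± 0.16, adjusted p = 0.00347). Without the libraries high in muscle RNA its difference was -0.77 (adjusted p = 0.0758). Under the alternatives 3 to 5 members of the list were called higher and 1 to 8 lower. The count of lower members was 8 without DMXAA 1 and 1 without DMXAA 3.

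Among the factors downstream, 6 of 16 IRF and STAT genes were higher with BO-112 and 1 lower, beside 11.2% and 10.2% of all genes. Irf7, which amplifies interferon production, stood at 965, 1198, 1038 and 1063 CPM against 530, 278, 366 and 363 CPM, with 89.0 to 197 CPM in vehicle. The groups did not overlap (1.51 ± 0.24, adjusted p = 0.000971). Stat2, a partner of the interferon receptor, was higher by 1.63 ± 0.26, with DMXAA 2 lowest at 127 CPM and the BO-112 tumours at 634 to 684 CPM. Stat3, which carries interleukin 6 signals, was higher by 0.77 ± 0.12. The only lower member was Irf3, at 29.2 to 34.3 CPM against 32.9 to 45.5 CPM (-0.36 ± 0.11, adjusted p = 0.0349). Its call was lost on leaving out any of the 4 BO-112 tumours, DMXAA 2 or DMXAA 3, with an adjusted p of up to 0.101.

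Genes that restrain interferon and NF-κB signalling were also higher with BO-112, in 11 of 24 cases, with 1 lower and a median of 0.39. Over all genes the shares were 11.2% higher and 10.2% lower. Tnfaip3, which encodes the ubiquitin-editing enzyme A20, stood at 142, 197, 156 and 174 CPM against 48.5, 27.2, 29.6 and 50.0 CPM (4.44-fold, adjusted p = 2.87e-05), where vehicle held 34.4 to 42.6 CPM. Tnip1, a partner of A20, was higher by 1.62 ± 0.16. Nfkbia, the NF-κB inhibitor IκBα, was higher with narrow groups of 327 ± 33.2 and 158 ± 14.2 CPM (1.05 ± 0.11, adjusted p = 4.63e-05). Socs1 lay at -0.13 and did not pass, while Socs3 was higher by 0.92 ± 0.19. Otulin, which removes linear ubiquitin chains, was the lower member, at 98.5 CPM in DMXAA 2 and 38.2 to 53.0 CPM in the other DMXAA tumours against 30.5 to 35.3 CPM. The call on Otulin was lost without any of the BO-112 tumours or without DMXAA 3, and the difference fell to -0.25 (adjusted p = 0.201) when DMXAA 2 and 3 were omitted. In the fit to the 8 single-agent libraries alone, and without the libraries high in muscle RNA, 7 of the 24 were called higher.

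Cytokine genes that activate lymphocytes were among those higher with BO-112. Of 28 measured inflammatory cytokine genes, 13 were higher with BO-112 and 2 lower, beside 11.2% and 10.2% of all genes. Their median was 0.68, and 7 were called higher without the libraries high in muscle RNA. Il12b, the p40 subunit of interleukins 12 and 23, stood at 18.8, 57.0, 37.2 and 47.3 CPM with BO-112 and at 4.34, 2.72, 2.29 and 1.99 CPM with DMXAA. Vehicle tumours, at 2.24 to 4.63 CPM, covered nearly the same range as DMXAA, so that the BO-112 tumours alone stood out (3.76 ± 0.33, 13.5-fold, adjusted p = 2.87e-05). Il15, which sustains NK and CD8 T cells, was higher by 1.59 ± 0.19, at 32.6 to 49.5 CPM against 11.6 to 15.6 CPM. Tnfsf15, a ligand that costimulates T cells, stood at 10.4 to 15.9 CPM against 0.346 to 1.67 CPM (3.73 ± 0.43, adjusted p = 0.000116). Il27 was higher by 1.96 ± 0.40.

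Within the interleukin 1 family the members differed. Il1rn, the receptor antagonist, stood at 770, 813, 707 and 804 CPM with BO-112 and at 163, 67.9, 77.3 and 181 CPM with DMXAA, where vehicle held 24.9 to 58.3 CPM (2.79 ± 0.32, adjusted p = 9.62e-05). Il1a stood at 7.35 to 10.8 CPM with BO-112 and at 1.33, 0.151, 0.485 and 5.06 CPM with DMXAA (3.35 ± 0.69, adjusted p = 0.00481). When DMXAA 2 and 3 were omitted its difference was 1.81 (adjusted p = 0.0155), and without the libraries high in muscle RNA it was 3.35 (adjusted p = 0.0741). Il1b overlapped between the agents, at 28.7 to 42.4 CPM and 12.7 to 35.4 CPM (0.76 ± 0.39, adjusted p = 0.156, 95% interval -0.07 to 1.59). Tumour necrosis factor (Tnf) stood at 37.8, 44.7, 35.5 and 19.5 CPM against 17.3, 15.5, 14.8 and 17.7 CPM (1.01 ± 0.32, adjusted p = 0.0369). Interleukin 6 (Il6) stood at 2.73 to 9.95 CPM against 0.831 to 3.14 CPM (1.63 ± 0.41, adjusted p = 0.0144). Neither call was firm: that on Tnf was lost without BO-112 1, 2 or 3 or DMXAA 2 or 3 (adjusted p up to 0.101), and that on Il6 without DMXAA 3 (adjusted p = 0.0511) and with DMXAA 2 and 3 omitted (adjusted p = 0.134).

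Chemokines that draw T cells and monocytes were higher with BO-112 in 6 of 27 cases and lower in 2, beside 11.2% and 10.2% of all genes, with a median of 0.21. Cxcl10, a ligand of the chemokine receptor CXCR3, stood at 1250, 1676, 1550 and 1089 CPM with BO-112 and at 279, 498, 304 and 343 CPM with DMXAA. In vehicle it stood at 317, 411 and 105 CPM, inside or below the DMXAA range, so that only the BO-112 tumours were apart (1.98 ± 0.34, adjusted p = 0.00151). Ccl5, an attractant of T cells and monocytes, stood at 951, 1589, 1450 and 1654 CPM against 318, 143, 199 and 268 CPM (2.64 ± 0.34, adjusted p = 0.000187). Both agents lay above its vehicle range of 36.2 to 90.2 CPM. Cxcl11, another CXCR3 ligand, was higher by 3.37 ± 0.59, at 51.9 to 93.7 CPM against 5.2 to 8.38 CPM. The third CXCR3 ligand, Cxcl9, stood at 404 to 766 CPM against 154 to 329 CPM without overlap, but did not pass (1.48 ± 0.52, adjusted p = 0.0551). Without DMXAA 1 it lay at 1.71 (adjusted p = 0.0316), and the fit to the 8 libraries alone gave an adjusted p of 0.0135. Its vehicle tumours ran from 42.0 to 413 CPM. Ccl6 was lower with BO-112, at 24.7 to 46.8 CPM against 53.8 to 149 CPM (-1.12 ± 0.30, adjusted p = 0.0206), and without BO-112 3 that adjusted p was 0.0596.

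Most neutrophil attractants and granule genes named here were above vehicle with both agents, and most did not pass between them. The 6 measured neutrophil chemokines had 1 member called higher and 1 lower, beside 11.2% and 10.2% of all genes. Their median difference was 0.19, where the medians beside vehicle were 2.63 for BO-112 and 2.43 for DMXAA. Cxcl2 stood at 25.2, 11.4, 9.91 and 34.3 CPM with BO-112 and at 13.6, 1.96, 9.21 and 60.2 CPM with DMXAA, against 0.297 to 0.925 CPM in vehicle. The DMXAA range enclosed the BO-112 range (0.67 ± 0.84, 95% interval -1.11 to 2.46). Cxcl1 was higher with BO-112 by 1.05 ± 0.22 (adjusted p = 0.00573), which became 0.75 (adjusted p = 0.0614) when DMXAA 2 and 3 were omitted and 0.98 (adjusted p = 0.0847) without the libraries high in muscle RNA. Pf4, platelet factor 4, was the lower member, at 13.3 to 18.9 CPM against 19.7 to 43.6 CPM (-0.76 ± 0.24, adjusted p = 0.0392), with 12.3 to 26.3 CPM in vehicle. Its call was lost without any 1 of the BO-112 tumours or DMXAA 2 (adjusted p up to 0.0985). Cxcl5 lay at -1.43 ± 0.60 (adjusted p = 0.0967), and at -1.90 (adjusted p = 0.0478) without BO-112 2. S100a8 and S100a9, the calprotectin subunits, lay at -0.42 ± 0.75 and -0.37 ± 0.74, and the iron-binding protein Lcn2 at -0.17 ± 0.70 (95% interval -1.66 to 1.31). Lcn2 itself stood at 5.99 to 59.0 CPM and 8.23 to 40.1 CPM in the BO-112 and DMXAA tumours, and at 0.0593 to 0.605 CPM in vehicle. For Ptx3, a soluble pattern receptor, the difference was 0.26 ± 0.48, and for the protease inhibitor Slpi it was 1.85 ± 0.71 (adjusted p = 0.0735), or 2.41 (adjusted p = 0.0197) without DMXAA 4. The B cell attractant Cxcl13 lay at -0.18 ± 0.63. These intervals leave room for differences of 2-fold or more.

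Other genes of myeloid cells, drawn from several lists, gave mixed values, and those with large differences come first. Clec4e, which encodes the damage receptor Mincle, stood at 275, 329, 323 and 299 CPM with BO-112 and at 27.1, 5.06, 10.6 and 31.3 CPM with DMXAA, where vehicle held 1.54 to 6.78 CPM (4.38 ± 0.52, adjusted p = 0.000123). Acod1, the enzyme that makes itaconate, stood at 555, 556, 523 and 420 CPM against 52.8, 25.5, 24.7 and 79.9 CPM (3.66 ± 0.43). Nos2, the inducible nitric oxide synthase, stood at 605, 724, 568 and 749 CPM against 123, 22.6, 56.7 and 143 CPM (3.25 ± 0.53, adjusted p = 0.00104). In all 3, DMXAA 1 and 4 were above DMXAA 2 and 3, and every BO-112 tumour was above all of them. Cd14, the lipopolysaccharide coreceptor, was higher by 1.78 ± 0.30, with an adjusted p of 0.0529 without the libraries high in muscle RNA. Arg1, which competes with Nos2 for arginine, stood at 318 to 522 CPM against 248 to 436 CPM (0.34 ± 0.25, adjusted p = 0.307). In the list of 22 neutrophil markers, 4 were called higher and none lower, beside 11.2% and 10.2% of all genes. The 4 were Clec4e, Clec4d, Acod1 and Mmp9, which macrophages also express, and the median of the list was -0.24. The call on Clec4d (1.45 ± 0.49, adjusted p = 0.0466) was lost without any 1 of the BO-112 tumours, DMXAA 2 or DMXAA 3, and with DMXAA 2 and 3 omitted. The monocyte genes Ms4a4c and Ms4a6c were higher by 1.36 ± 0.19 and 0.95 ± 0.14, and Ly6c2, at 148 to 228 CPM against 78.0 to 291 CPM, did not pass (0.50 ± 0.30, adjusted p = 0.212). Without DMXAA 1 Ly6c2 lay at 0.88 (adjusted p = 0.00574), and without the libraries high in muscle RNA at 0.96 (adjusted p = 0.0346).

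Some RNAs of MHC class I and peptide loading were higher with BO-112, while the classical chain H2-K1 did not differ detectably. The class II activator Ciita was lower with BO-112. Of 26 class I and peptide loading genes, 6 were called higher and none lower, beside 11.2% and 10.2% of all genes. The median was 0.24. The higher count ran from 2, without DMXAA 3 or without the libraries high in muscle RNA, to 12. It was 12 with DMXAA 2 and 3 omitted or the transcript length trend removed. H2-K1, a classical class I chain, stood at 3712, 4315, 3977 and 4161 CPM with BO-112 and at 3240, 4522, 3841 and 3022 CPM with DMXAA, above 1813 to 2667 CPM in vehicle. The difference of 0.16 ± 0.15 had a 95% interval of -0.16 to 0.48. The non-classical gene H2-M2 had the largest difference among the genes chosen for naming, at 5.98, 19.8, 28.1 and 10 CPM against 0.810, 0.302, 0.208 and 0.613 CPM, where vehicle held 0.605 to 1.30 CPM (4.89 ± 0.61, 29.6-fold, adjusted p = 0.000157).

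Of 15 class II genes, 2 were higher and 4 lower with BO-112, beside 11.2% and 10.2% of all genes. Ciita, the master activator of the class II genes, stood at 3.51, 3.79, 7.32 and 2.62 CPM with BO-112, at 28.1, 22.8, 16.7 and 12.5 CPM with DMXAA and at 48.2 to 56.2 CPM in vehicle, so that the 3 groups formed separate ranges (-2.25 ± 0.45, adjusted p = 0.0042). H2-DMb1, part of the peptide exchanger of class II molecules, stood at 17.8 to 33.1 CPM against 42.8 to 213 CPM (-1.89 ± 0.38). Rfx5, which binds class II promoters, went the other way, by 1.11 ± 0.17 (adjusted p = 0.000714). H2-Ab1, a class II chain, stood at 270 to 570 CPM against 378 to 1536 CPM and did not pass (-0.78 ± 0.39, adjusted p = 0.143), though without DMXAA 4 it lay at -1.07 (adjusted p = 0.0437). Without the libraries high in muscle RNA none of the 4 was called lower, with Ciita at -2.01 (adjusted p = 0.0917) and H2-DMb1 at -1.88 (adjusted p = 0.0741), and without DMXAA 4 the count was 8. With DMXAA 2 and 3 omitted, Ciita lay at -2.22 (adjusted p = 0.0546).

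Ligands of costimulation and checkpoints were higher with BO-112 in 9 of 19 cases and lower in 2, beside 11.2% and 10.2% of all genes. Their median difference was 0.60. Cd274, which encodes PD-L1, stood at 284, 309, 297 and 306 CPM with BO-112 and at 126, 43.4, 45.6 and 123 CPM with DMXAA, where vehicle held 34.8 to 91.8 CPM. DMXAA 2 and 3 lay within the vehicle range and DMXAA 1 and 4 above it (2.01 ± 0.35, 4.02-fold, adjusted p = 0.00178). Cd40, the receptor by which T cells license dendritic cells, stood at 71.7, 136, 103 and 93.0 CPM against 22.2, 34.3, 15.3 and 15.1 CPM (2.26 ± 0.27, adjusted p = 0.000124). Lgals9, a TIM-3 ligand, was higher by 0.83 ± 0.12. Vsir, which encodes the inhibitory receptor VISTA, was lower with BO-112, at 52.2, 46.5, 63.8 and 56.1 CPM against 136, 135, 125 and 104 CPM, with vehicle at 85.9 to 109 CPM. Its 2 groups were far apart (-1.2 ± 0.15, adjusted p = 0.000187), and vehicle lay above all BO-112 tumours and overlapped the lowest DMXAA tumour.

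Among genes of cell death, 15 of 34 were higher with BO-112 and 3 lower, beside 11.2% and 10.2% of all genes. Their median was 0.33. Without the libraries high in muscle RNA 8 were higher and none lower. Casp4, the caspase that senses cytosolic lipopolysaccharide, had groups of 110 ± 4.87 and 50.5 ± 4.10 CPM (1.12 ± 0.12, adjusted p = 4.63e-05). Gsdmd, the pore protein it cleaves, was higher by 0.62 ± 0.10, and Mlkl, the pore protein of necroptosis, by 0.65 ± 0.11. Birc3, an inhibitor of apoptosis and NF-κB target, was higher by 1.10 ± 0.13. The inflammasome sensor Nlrp1b was lower, at 2.87 to 6.92 CPM against 9.42 to 20.7 CPM (-1.42 ± 0.29, adjusted p = 0.00484), with vehicle at 17.0 to 21.5 CPM. Its adjusted p was 0.0681 without the libraries high in muscle RNA.

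DMXAA is known for its action on tumour vessels, and endothelial genes were therefore listed. Of 30 endothelial markers 2 were called higher and 3 lower with BO-112, at or below the 11.2% and 10.2% of all genes, with a median of -0.00. Without DMXAA 1 the counts were 6 and 1. Pecam1, a junction protein of all endothelium, stood at 59.5 to 69.6 CPM against 53.9 to 99.1 CPM (-0.04 ± 0.17, 95% interval -0.39 to 0.32). Kdr, the main receptor of VEGF, stood at 89.8, 87.1, 79.1 and 86.6 CPM with BO-112 and at 47.4, 18.1, 21.5 and 34.0 CPM with DMXAA, where vehicle held 16.1 to 24.0 CPM (1.60 ± 0.27, adjusted p = 0.00137). Flt1, a decoy receptor of VEGF, was higher by 0.98 ± 0.19. Sox18, an endothelial transcription factor, was lower, at 2.59 to 5.17 CPM against 7.70 to 12.9 CPM (-1.41 ± 0.23, adjusted p = 0.000944), with an adjusted p of 0.0534 without the libraries high in muscle RNA. Of 24 genes of endothelial activation 7 were higher and none lower, beside 11.2% and 10.2% of all genes. The higher count was 3 without the libraries high in muscle RNA and 4 in the fit to the 8 libraries alone. It was 9 without DMXAA 1 or without DMXAA 4. Which cells held the RNA of these genes was not tested. Vcam1, an adhesion molecule for lymphocytes, stood at 690, 861, 791 and 788 CPM against 254, 440, 329 and 338 CPM (1.22 ± 0.16, adjusted p = 0.000191). Icam1 was higher by 1.97 ± 0.33. Edn1, the vasoconstrictor endothelin 1, was higher by 2.00 ± 0.37, with an adjusted p of 0.0541 without the libraries high in muscle RNA. The selectins did not pass: Sele lay at -1.53 ± 0.58 (adjusted p = 0.0691, and 0.0369 without DMXAA 4), and Selp, at 10 CPM in DMXAA 1 and 0.830 to 1.23 CPM in the other DMXAA tumours, lay at -0.24 ± 0.71. In bulk tumour RNA, fewer cells of a type and less RNA per cell cannot be told apart.

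Genes of hypoxia and glycolysis were higher with BO-112 in 16 of 31 cases and lower in 1, beside 11.2% and 10.2% of all genes. Their median difference was 0.60. The list joins glycolytic enzymes with genes that answer low oxygen, and the part of oxygen in these values was not tested. Beside vehicle the median was 0.60 with BO-112 and 0.03 with DMXAA. Vegfa, the vascular growth factor, stood at 408, 314, 338 and 522 CPM against 186, 137, 164 and 218 CPM (1.16 ± 0.17, adjusted p = 0.000493). Vehicle held 194.5 to 245 CPM of Vegfa, mostly above the DMXAA tumours. Hif1a, the oxygen-regulated factor itself, was higher by 0.89 ± 0.13, and Ndrg1, one of its targets, by 0.95 ± 0.12. Hexokinase 2 (Hk2) was higher by 1.2 ± 0.20 and the glycolytic regulator Pfkfb3 by 1.55 ± 0.30. Pfkfb4 of the same enzyme family was the lower member (-0.61 ± 0.15, adjusted p = 0.0148). In the fit to the 8 libraries alone 10 of the 31 were higher, and without the libraries high in muscle RNA 6 were, with none lower in either and Pfkfb4 at an adjusted p of 0.0561 and 0.0973.

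The integrated stress response, which PKR and related kinases start by phosphorylating eIF2α, had 12 of 27 members higher with BO-112 and none lower. Over all genes the shares were 11.2% and 10.2%. The median of the list was 0.31, and 6 members were higher without the libraries high in muscle RNA. Slc7a11, the cystine importer, stood at 143, 123, 132 and 123 CPM against 49.7, 38.6, 31.0 and 66.3 CPM (1.54 ± 0.21, adjusted p = 0.00035). Atf3 was higher by 1.37 ± 0.25 and Chac1, which degrades glutathione, by 1.43 ± 0.24. Of 28 immediate early genes 11 were higher, beside 11.2% of all genes, and 3 lower, close to the 10.2% of all genes. The higher count was 7 without DMXAA 3 and 3 without the libraries high in muscle RNA. The orphan receptor Nr4a3 was the furthest apart (1.75 ± 0.29, adjusted p = 0.00115).

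Several genes of macrophages and other myeloid cells were higher with DMXAA, and some of them stood near the vehicle level in the DMXAA tumours. This did not extend to dendritic cell markers as a list. Of 23 measured, 4 were called higher with BO-112 and 1 lower, beside 11.2% and 10.2% of all genes, with a median of -0.18. Ccr7 was among the higher members, and Clec10a was the lower member. Cd209f, a C-type lectin, stood at 0.0548, 0, 0.0665 and 0.319 CPM with BO-112 and at 2.14, 3.47, 2.01 and 1.33 CPM with DMXAA, with 0.498 to 2.85 CPM in vehicle. BO-112 2 had no read for it (-4.47 ± 0.67, a fitted 22.2-fold difference, adjusted p = 0.000628). Clec10a, a galactose-binding lectin of macrophages and dendritic cells, stood at 0.877, 1.92, 1.06 and 0.128 CPM against 13.9, 16.2, 4.57 and 3.32 CPM (-3.36 ± 0.71, adjusted p = 0.00573). Cd163, the scavenger receptor for haemoglobin complexes, stood at 0.0548, 0.3, 0.0665 and 0.191 CPM against 2.52, 2.11, 1.80 and 0.869 CPM, where vehicle held 2.35 to 9.07 CPM. The 3 groups of Cd163 met only at the top of DMXAA and the foot of vehicle (-3.46 ± 0.58, adjusted p = 0.00121).

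Rnase6, an antimicrobial ribonuclease of myeloid cells, stood at 1.04, 1.14, 0.998 and 1.28 CPM with BO-112 and at 11.4, 12.3, 8.73 and 4.09 CPM with DMXAA, around the 5.87 to 7.12 CPM of vehicle (-2.89 ± 0.32, 7.40-fold, adjusted p = 7.96e-05). Trem2, a lipid receptor of macrophages, stood at 26.4, 23.3, 41.6 and 17.2 CPM against 65.2, 120, 82.6 and 61.5 CPM (-1.62 ± 0.25, adjusted p = 0.000849). In the inflammatory monocyte list 4 of 19 were higher with BO-112 and 1 lower, beside 11.2% and 10.2% of all genes (median 0.39). Ccr2, which brings monocytes out of the marrow, was the 1 lower member. It stood at 61.6, 67.1, 60.6 and 43.3 CPM against 232, 245, 121 and 94.3 CPM (-1.48 ± 0.31, adjusted p = 0.00519). For all 3 genes the vehicle tumours lay within or near the DMXAA range, and the BO-112 tumours lay below both. Mrc1, the mannose receptor, stood at 29.2, 41.6, 37.8 and 29.2 CPM against 104, 190, 62.5 and 94.9 CPM (-1.61 ± 0.44, adjusted p = 0.0203). Its vehicle tumours were higher still, at 151 to 441 CPM, and its call was lost without BO-112 1, BO-112 4 or DMXAA 2. Over the list of 29 macrophage markers, 4 were higher and 7 lower with BO-112, beside 11.2% and 10.2% of all genes. The median was -0.28, and the complement genes C1qa, C1qb and C1qc did not pass, at -0.52, -0.37 and -0.28. The lower count fell to 3 without BO-112 1 and 2 without the libraries high in muscle RNA, where Cd163 lay at -2.83 (adjusted p = 0.0646), Clec10a at -3.40 (adjusted p = 0.0758) and Ccr2 at -1.44 (adjusted p = 0.0685). With DMXAA 2 and 3 omitted Clec10a lay at -3.19 (adjusted p = 0.0528) and Ccr2 at -1.37 (adjusted p = 0.052).

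Other genes of the same direction came from the 12 with the largest differences. Nxpe5 stood at 1.32, 0.901, 1.2 and 1.59 CPM against 9.67, 5.89, 6.58 and 8.54 CPM (-2.59 ± 0.25, adjusted p = 3.35e-05). Vehicle held 8.83 to 15.8 CPM of Nxpe5, mostly above the DMXAA tumours. Ltb4r1, the receptor of leukotriene B4, was lower with BO-112 by 2.31 on the log2 scale, from 9.32 ± 2.07 to 1.93 ± 0.748 CPM. Abcg3 and Lrrc17 lay at -2.45 ± 0.32 and -2.44 ± 0.34. For Abcg3, vehicle at 9.02 to 10.2 CPM was above all DMXAA tumours, at 5.88 to 8.24 CPM. For Lrrc17, vehicle at 2.91 to 7.41 CPM overlapped the DMXAA range of 4.99 to 8.57 CPM. Spon2, a matrix protein, stood at 0.128 to 0.601 CPM against 1.38 to 3.40 CPM, with vehicle at 0.356 to 0.848 CPM, so that here the DMXAA tumours were the ones apart from vehicle. Ptgs1, the cyclooxygenase COX-1, lay at -2.55 ± 0.53 (adjusted p = 0.00513), with an adjusted p of 0.0637 without the libraries high in muscle RNA and 0.0554 with DMXAA 2 and 3 omitted. Vehicle held 16.4 to 34.0 CPM of Ptgs1, and the DMXAA tumours 6.70 to 21.9 CPM. Among the counterparts higher with BO-112, Htra4, a serine protease, stood at 37.6, 40.9, 39.6 and 45.7 CPM against 3.86, 1.74, 3.60 and 5.52 CPM (3.57 ± 0.36, adjusted p = 4e-05). Heatr9 and Adgb were higher by 3.35 ± 0.44 and 3.31 ± 0.48. Adtrp was higher by 3.49 ± 0.75, with an adjusted p of 0.0606 without the libraries high in muscle RNA.

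**Figure D4:**
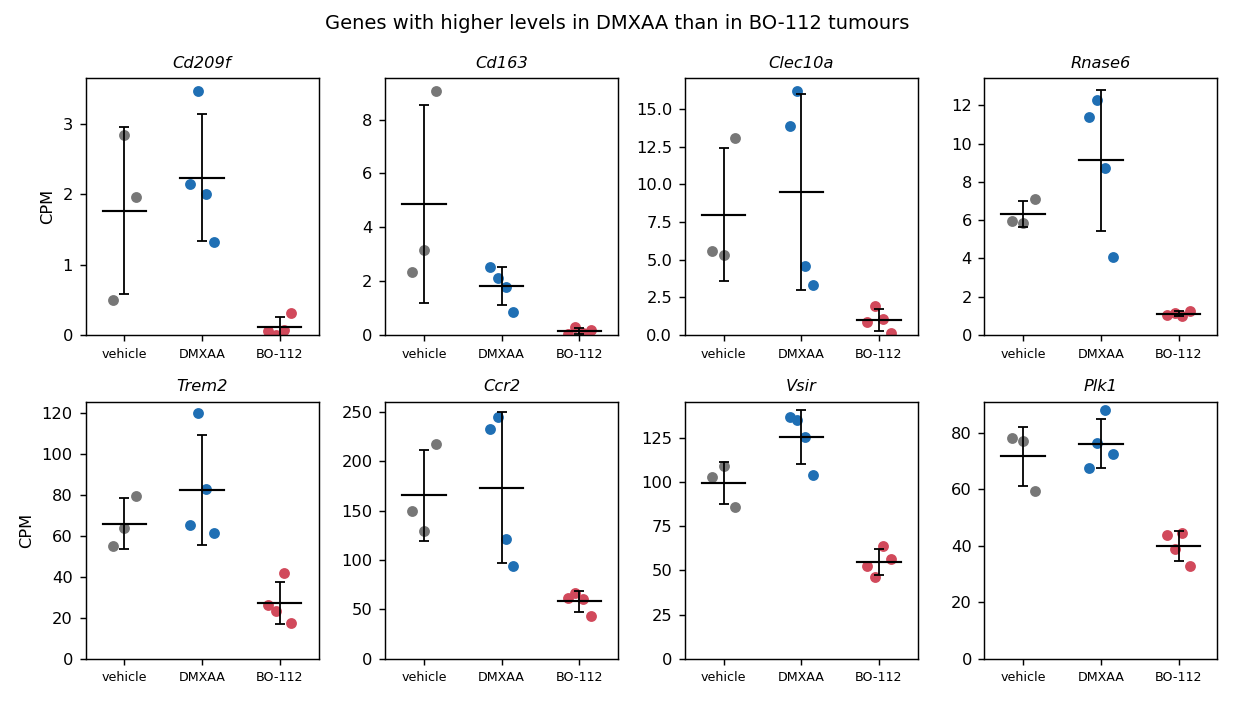
CPM on linear axes from 0 for 8 genes in each vehicle (n = 3), DMXAA (n = 4) and BO-112 (n = 4) tumour, with points for tumours, a line for the mean and bars for the SD. In each panel all 4 BO-112 tumours lie below all 4 DMXAA tumours, as for Rnase6 at 0.998 to 1.28 against 4.09 to 12.3 CPM.

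Lymphocyte genes gave few firm calls. Of 28 T cell genes 1 was called higher and 5 lower, beside 11.2% and 10.2% of all genes, with a median of -0.17. No member was called lower in the fit to the 8 libraries alone, with the transcript length trend removed, with DMXAA 2 and 3 omitted or without the libraries high in muscle RNA. Trbc2, a constant part of the T cell receptor, stood at 4.44, 6.67, 9.05 and 5.04 CPM with BO-112 and at 17.9, 21.5, 15 and 8.02 CPM with DMXAA, with 6.17 to 10.7 CPM in vehicle. BO-112 3 lay above DMXAA 4 (-1.27 ± 0.30, adjusted p = 0.0105, and 0.0868 with DMXAA 2 and 3 omitted). Cd8a stood at 4.06 to 13 CPM against 10.9 to 19.7 CPM and did not pass (-0.90 ± 0.50, adjusted p = 0.183, 95% interval -1.96 to 0.16). Of 27 NK and cytotoxic genes 2 were higher and 6 lower, beside 11.2% and 10.2% of all genes. With DMXAA 2 and 3 omitted none was higher and 1 lower. Klrd1, which encodes the NK receptor chain CD94, stood at 5.87 to 9.71 CPM against 11.1 to 19.6 CPM (-1.13 ± 0.23, adjusted p = 0.00433, and 0.0672 without the libraries high in muscle RNA). Granzyme B (Gzmb) went the other way, at 126, 171, 139 and 124 CPM against 78.0, 39.1, 53.9 and 54.0 CPM (1.34 ± 0.38, adjusted p = 0.0245). Its call was lost without BO-112 2, DMXAA 2 or DMXAA 3, with an adjusted p of up to 0.0728.

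In the short list of 12 B and plasma cell genes, the members called did not share a direction. Spib and Pax5, transcription factors of B cells, were higher with BO-112 by 2.25 ± 0.33 and 2.57 ± 0.47, while Ighm, the IgM heavy chain, was lower by 1.70 ± 0.34 in size, at 6.31 to 10.2 CPM against 13.9 to 36.2 CPM. The adjusted p of Ighm was 0.00455, and 0.104 without the libraries high in muscle RNA and 0.0632 with DMXAA 2 and 3 omitted. The B cell surface genes Ms4a1 and Cd79a did not pass, at -0.11 and 0.27. Ccr7, which marks migrating dendritic cells, stood at 31.2, 60.3, 39.9 and 54.6 CPM against 27.2, 16.1, 14.8 and 18.3 CPM (1.28 ± 0.30, adjusted p = 0.0102), and with DMXAA 2 and 3 omitted it lay at 1.01 (adjusted p = 0.135).

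Cell cycle genes were lower with BO-112. Of 30 members 20 were called lower, beside 10.2% of all genes, and none higher, with a median of -0.52, where the medians beside vehicle were -0.52 for BO-112 and 0.10 for DMXAA. Plk1, the mitotic kinase, stood at 43.7, 38.8, 44.6 and 32.9 CPM with BO-112 and at 67.7, 76.3, 88.1 and 72.4 CPM with DMXAA, with 59.5 to 78.4 CPM in vehicle. BO-112 tumours lay below all others (-0.93 ± 0.16, adjusted p = 0.00121). Rrm2, which supplies deoxynucleotides, and Aurka, another mitotic kinase, were lower by 0.92 ± 0.16 and 0.93 ± 0.17 in size. The proliferation marker Mki67 overlapped, at 194 to 245 CPM against 199 to 358 CPM (-0.28 ± 0.17, 95% interval -0.64 to 0.08). It was called lower with DMXAA 2 and 3 omitted (-0.58, adjusted p = 0.0192), under array quality weights (-0.47, adjusted p = 0.0446) and after the trend on transcript length was removed (-0.64, adjusted p = 0.00238). The count was 8 without the libraries high in muscle RNA and between 14 and 22 under the other alternatives.

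Respiratory chain genes and genes of long transcripts moved with the libraries DMXAA 2 and DMXAA 3. The mean log2 CPM of 33 oxidative phosphorylation genes was 5.64, 5.64, 5.73 and 5.72 in the BO-112 tumours and 5.77, 7.43, 6.52 and 5.76 in the DMXAA tumours, with 5.78 to 6.09 in vehicle. DMXAA 2 and 3 stood apart from all other single-agent and vehicle tumours. With all libraries the median difference was -0.69. Of the 33 genes 10 were called lower with BO-112 and none higher, beside 10.2% and 11.2% of all genes. With DMXAA 2 and 3 omitted none was, and none was either without BO-112 1, 2, 3 or 4 or DMXAA 3, while 30 were without DMXAA 1 and 26 without DMXAA 4. Uqcr10, a small subunit of complex III, stood at 36.5 to 38.5 CPM with BO-112 and at 47.3, 156, 77.6 and 48.5 CPM with DMXAA (-0.95 ± 0.27, adjusted p = 0.0264), and its difference was -0.35 (adjusted p = 0.0591) with those 2 libraries omitted. Its call was also lost without any 1 of the BO-112 tumours or DMXAA 3 (adjusted p up to 0.0688). Of 27 genes with long transcripts 7 were higher with BO-112 and none lower, beside 11.2% and 10.2% of all genes. The higher count was 18 without DMXAA 1 or without DMXAA 4, and 1 with DMXAA 2 and 3 omitted. The part of RNA quality or of library preparation in these values was not tested.

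**Figure D5:**
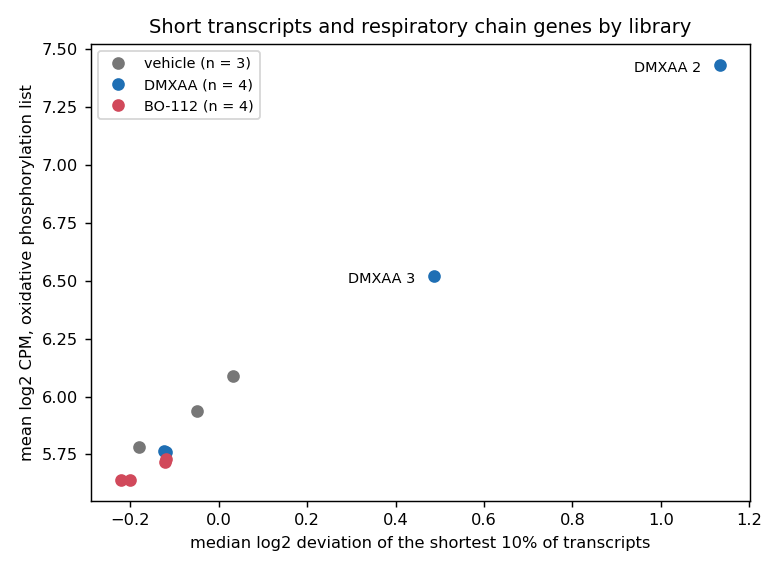
For each vehicle, DMXAA and BO-112 library, the median log2 deviation of the shortest 10% of transcripts (horizontal) and the mean log2 CPM of 33 oxidative phosphorylation genes (vertical). DMXAA 2 (1.13, 7.43) and DMXAA 3 (0.49, 6.52) lie apart from the other 9 libraries.

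Genes of the stroma and of the tissue around the tumour gave mixed values. The median of 32 collagen and matrix genes was 0.55. Of them 12 were higher with BO-112 and none lower, beside 11.2% and 10.2% of all genes. That count was 1 without the libraries high in muscle RNA, 3 without BO-112 4, 5 without BO-112 2 or DMXAA 3, and 4 with DMXAA 2 and 3 omitted. Mmp9, a gelatinase, stood at 117, 141, 118 and 149 CPM against 60.2, 63.7, 65.1 and 75.8 CPM (0.98 ± 0.17, adjusted p = 0.00169), and vehicle, at 88.1 to 158 CPM, lay with BO-112. Fat cell genes were uneven in both groups: their summed level was 30.1, 376, 17.2 and 22.1 CPM with BO-112, 348, 440, 108 and 50.3 CPM with DMXAA and 29.4 to 43.9 CPM in vehicle. Of 13 such genes 1 was called lower, beside 10.2% of all genes. Without BO-112 2 the count was 5, and without DMXAA 4 it was 3. The 1 was Lpl, a lipase that macrophages also make, at 7.18, 24.3, 4.59 and 3.25 CPM against 70.4, 56.1, 22 and 29.4 CPM (-2.48 ± 0.55, adjusted p = 0.00745, and 0.0521 with DMXAA 2 and 3 omitted). The high BO-112 value of Lpl was in BO-112 2, the tumour with the high fat cell sum, and the part of fat tissue in that difference was not tested. Summed skeletal muscle genes came to 671, 40.9, 29.4 and 37.0 CPM with BO-112 and 1142, 38.5, 567 and 32.7 CPM with DMXAA. Of 23 cholesterol synthesis genes 3 were lower with BO-112, close to the 10.2% of all genes, and none higher, beside 11.2%. Each of the 3 calls was lost on leaving out some single library.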

How the data were processed

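RNA of MC38 tumours was sequenced as stranded mRNA libraries with paired reads of 150 bp, per the labels' protocols. The deposited values are log2 CPM with 0.5 reads added and library sizes scaled by 1 factor per library, as the values themselves show: they return whole reads for 100% of entries (tolerance 1e-06). The submitters' processing notes name STAR, edgeR, limma and mm39, without role or version, and how genes were filtered by the authors is not given in the sources used here. A second deposited table has no header, so its 15 columns were not used.

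A mean per group was fitted to the deposited log2 values of all 15 libraries with limma 3.58.1 in R 4.3.3 (trended, robust moderation), and p-values were adjusted over all 17712 genes. CPM are printed from the recovered reads without the added 0.5. Transcript lengths were taken from GENCODE M21 for the 17636 genes found there. The script was tested on simulated data. Nothing says that the samples came from separate mice beyond the words biological replicate. The p-values set each difference against the moderated spread of samples within groups over all 15 libraries, which may not be a spread between mice. Library depths of 12725316 to 19660511 reads limit the precision of genes under about 1 CPM. Some results are not reported here.

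Genes were named by a rule: the 12 largest differences on each side among called genes that averaged 1 CPM or more and whose ranges were apart, the 3 smallest adjusted p in each list with the first called member of the other direction, and a fixed panel. The rule named 163 genes, of which 117 are printed. A further 25 were chosen after their values were seen. Members and lists were chosen with earlier results of these data known, so counts over lists are descriptions and no set was tested. Alternatives were other scalings, filters, priors, weights and fits, a length correction, and libraries left out.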

Additional observations from a re-analysis of the deposited data

Results flagged for a closer look

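Of 284 groups of 4 tumours examined over the genes named, 7 had 1 tumour far from the other 3, where chance gives about 1 in 20. Cd79a had 0 reads in DMXAA 2 and 0.346 to 0.572 CPM in the other DMXAA tumours. Stat3 was lowest in DMXAA 3, at 223 CPM against 273 to 283 CPM, and Selp was highest in DMXAA 1, at 10 CPM against 0.83 to 1.23 CPM. Among the BO-112 tumours, Tmem173 stood at 69.5 CPM in BO-112 2 against 48.1 to 49.9 CPM, and Clec4d at 70.8 CPM in the same tumour against 113 to 120 CPM. Cgas was lowest in BO-112 4, at 29.2 CPM against 35.2 to 36 CPM. Klrd1 was highest in BO-112 3, at 9.71 CPM against 5.87 to 6.13 CPM.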

How the results depend on the processing

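None of the 142 genes printed changed its direction with its call under any alternative that was run. Of the 108 called, 96 stayed called with each of the 8 libraries left out in turn and 76 in every alternative fit at the threshold of 0.05. The number of genes called was less stable. With 1 library left out it ran from 1879 to 5898, with 1131 to 2984 higher and 748 to 2914 lower with BO-112. The fit to the 8 single-agent libraries alone called 1262 (811 higher, 451 lower, 64.3% higher). Without the 4 libraries high in muscle RNA 791 were called (577 higher, 214 lower, 72.9% higher). Omitting DMXAA 2 and DMXAA 3, an alternative chosen after seeing the data, left 1936 (1166 higher, 770 lower). At an adjusted p of 0.01 there were 1189 (772 higher, 417 lower, 64.9% higher). Array quality weights left 1099 lower, and scaling by total count alone made 35.4% of calls higher. Fewer samples entered the fits with libraries omitted, and with 1 library left out the count moved both up and down. The cause of the shifts was not tested. With the replicate number as a block, 3828 were called (2063 higher, 1765 lower). Deviations of same-numbered tumours correlated at 0.066 on average over 4 pairs (-0.060 to 0.166), and those of the other 12 pairs at -0.019, so the numbers were not taken as pairs. Depth limits genes near 1 CPM, such as Cd209f and Cd163, where a few reads set the level.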
